A study of Mus musculus with 17 samples.

Results

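The 52 genes described here encode the factors that start and extend protein chains on the ribosome, together with repressors and modifying enzymes of those factors. They are all genes with a probe set of a single symbol beginning with Eif1 to Eif6, Eef1 or Eef2, after the eIF2 kinases and the sex-linked eIF2 gamma subunit genes had been left out. They make up 52 of the 18193 genes that the array measured under 1 symbol. Each gene was followed by 1 of its probe sets, the brightest on average over the 15 unmarked arrays, and the choice used no comparison between genotypes.

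The study asked what loss of the FOXO transcription factors does to the mouse brain. KO animals carried floxed alleles of Foxo1, Foxo3 and Foxo4 and the hGFAP-cre transgene, which acts in progenitors common to neurons and astrocytes, so that the deletion was not limited to neurons. They were compared with WT animals, and the methods give a mixed FVB and B6 background for the mice. RNA of the dentate gyrus, taken by laser capture according to the methods and labelled only as brain in the sample records, was hybridised to Affymetrix mouse expression arrays from 8 KO and 7 WT samples. Animals 433 (KO) and 437 (WT) each had a second library marked CA13, a mark that the sources used here do not explain. The sources used here give neither age nor sex of these animals. The labels do not say that each sample came from a separate animal, so the p-values measure the spread between these samples, part of which may be technical.

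Levels are quantile normalized log2(signal + 32), where signal is the deposited intensity, and a difference of 1 is a 2-fold difference on that scale. Adding 32 understates the change of dim genes. All arrays had been scaled to a 2% trimmed mean of 500, and the number of arrays, not a read depth, limits the precision. Of the 52 members, 50 reached a signal of 64 in at least 7 arrays, and Eif4a3 and Eef2kmt, with mean signals of 5.45 and 19.7, lay near the floor. The chosen probe sets were 28 plain _at sets, 12 _a_at, 7 _x_at and 5 _s_at sets, and the types _x_at and _s_at can match transcripts of other genes. Foxo1 signal ran between 121 and 657.7 in KO samples (median 217), against 4970 to 19070 in WT samples (median 10090), so every array fell on the side of its genotype label. The library labelled 433 lacked the marker profile of the dentate gyrus, the tissue that the methods name. Its 12 granule neuron markers averaged 8.30, against 11.32 to 11.70 in the other KO libraries, and its 12 markers of the pyramidal neurons of the CA fields averaged 10.99, against 8.05 to 8.79. The WT array 392 also stood apart, as described below. Results that rest on either array are given with and without it.

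In animals, translation begins when the trimeric factor eIF2 brings the initiator tRNA to the small ribosomal subunit, with eIF1, eIF1A and eIF5 helping to select the start codon and eIF2B recharging eIF2 with GTP. The large assembly eIF3 holds the small subunit open for the mRNA, while the cap-binding protein eIF4E, the scaffold eIF4G and the helicase eIF4A recruit it. The growth regulator mTORC1 phosphorylates the repressors 4E-BP1 and 4E-BP2, encoded by Eif4ebp1 and Eif4ebp2, so that they release eIF4E. Elongation then runs on eEF1A, which delivers aminoacyl-tRNAs, and on eEF2, which moves the ribosome along and is inhibited by the kinase eEF2K. FOXO factors curb growth signalling in many cell types, and the study followed mTORC1 in these KO brains, which makes the mRNA levels of its translation targets of interest.

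Many mammalian mRNAs of the translation machinery begin with a C followed by a run of pyrimidines, the TOP motif, through which mTORC1 controls their translation. The letters around the annotated starts were searched for such runs. The search cannot show which members are of that kind, because runs that begin before or after the annotated start were counted too. RefSeq start regions (GRCm38.p6) were found for 41 of the 52 members. A C followed directly by at least 6 C or T, a run of 7 or more read on the coding strand only, lay within 20 bases before to 20 after an annotated start in 13 of the 41 (31.7%), against 5773 of 27025 genes in the table (21.4%). The stretches of 30 bases below are shown because these genes return in the comparisons. Capitals mark the first run in the window, and positions are counted from 1 at the annotated start.
Eef1a1, chr9:78481705-78481734 (minus strand), run of 10 from position -5: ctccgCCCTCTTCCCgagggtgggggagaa
Eif3f, chr7:108934396-108934425 (plus strand), run of 7 from position -19: CTCTTCTgttctaggctctctctctttctc
Eif3l, chr15:79075213-79075242 (plus strand), run of 8 from position -5: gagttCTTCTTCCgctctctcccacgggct
Eif3k, chr7:28981869-28981898 (minus strand), run of 7 from position 14: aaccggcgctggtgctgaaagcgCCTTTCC
Eif4b, chr15:102073763-102073792 (plus strand), run of 7 from position 11: tcccgtcggacgccgcgccaCCCCCTCgcg
Eif4e, chr3:138527256-138527285 (plus strand), run of 10 from position -12: CCCCCCCTTCaggagcggttgtgcgatcag
The marked runs of Eef1a1 and Eif3l span the annotated start. Those of Eif3f and Eif4e end before it, and those of Eif3k and Eif4b begin after it. In Eif3f a later, unmarked run led by a C spans the annotated start. The element GTAAACA, bound by forkhead factors, or its reverse TGTTTAC on the same strand was present in the 300-base start region of 0 of the 41 members, against 1095 of 27025 genes (4.05%). Both counts describe the letters in these windows, and nothing about binding or translation was measured.

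Loss of the FOXO genes was not accompanied by a detectable change in the mRNA of any of the 52 members. None of the 52 members passed an adjusted p of 0.05 in limma in either direction, and 0 reached an unadjusted p of 0.05, while over all genes 0.0055% were called higher, 0.0055% lower, 1.53% had an unadjusted p under 0.05 and were higher in KO, and 1.52% were lower. The log2 fold changes, KO minus WT, ran between -0.44 and 0.30, with 25 members above 0 and 27 below. Their median was -0.006, against 0.009 over all genes. The KO and WT ranges overlapped for all 52 members, a count that was not made over all genes.

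The size that could have been missed differs between members. The 95% interval of the difference lay inside 1.5-fold in both directions for 38 of the 52 (73.1%), against 57.1% of all genes. Standard errors ran from 0.064, that of Eif4a3, to 0.488 on the log2 scale, with 0.178 as the median. The least precise member, Eif3a, had an interval of -1.02 to 1.04. For the other 14 members the interval reached past 1.5-fold, so that it includes a change of this size.

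**Figure D1:**
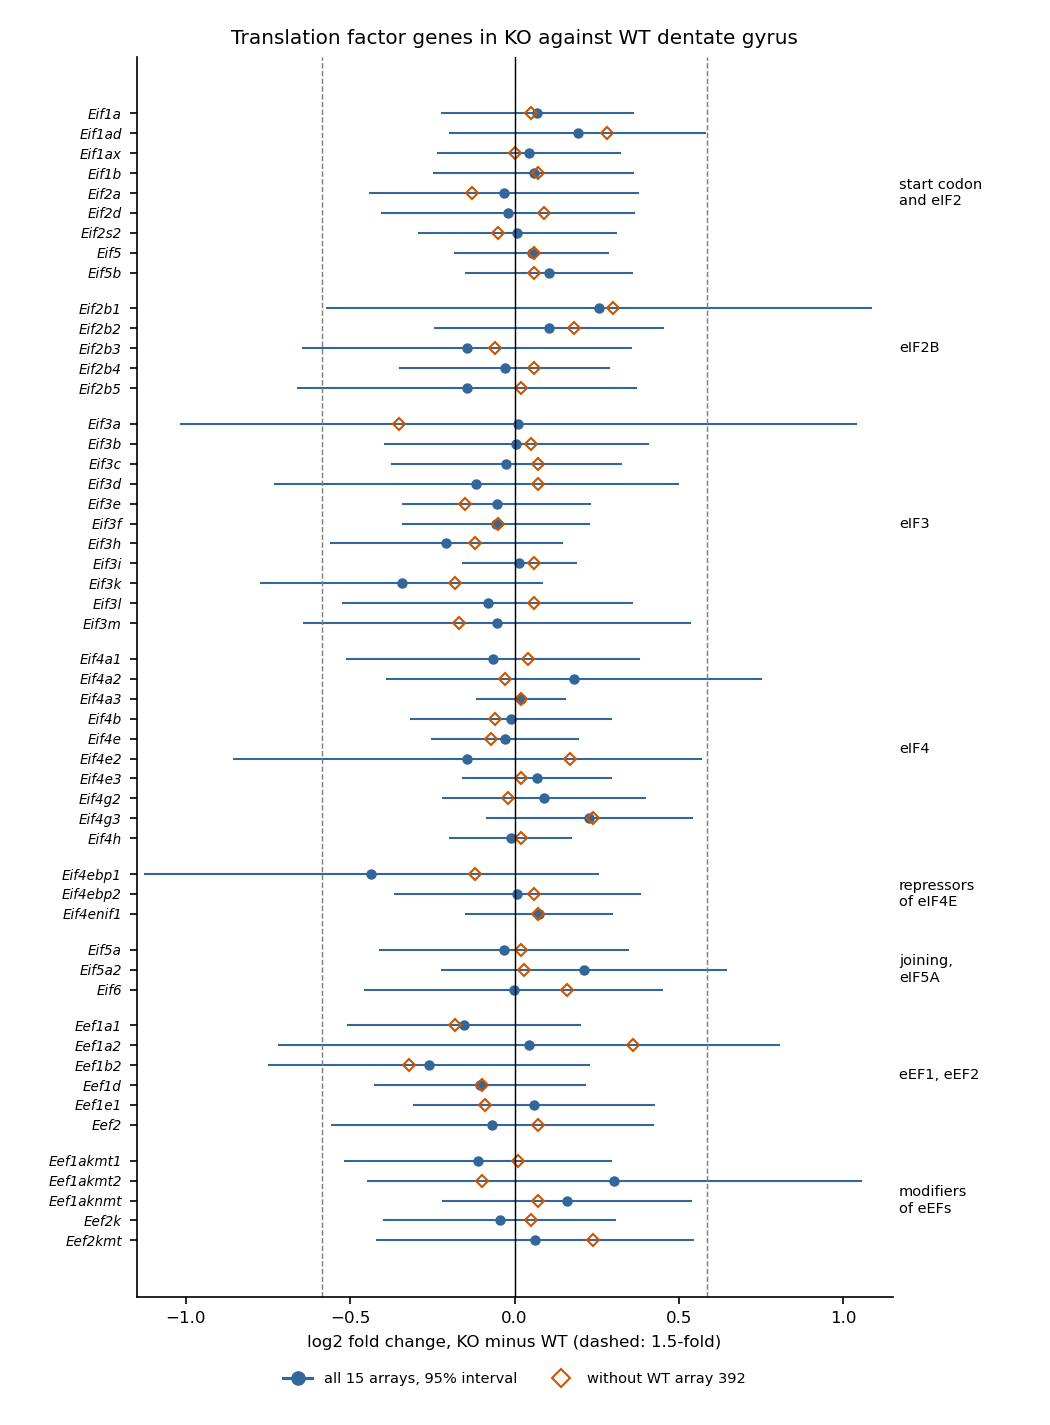
Log2 fold change of each of the 52 members (horizontal axis, KO minus WT), grouped by complex down the page. Filled points and lines give the estimate from 15 arrays with its 95% interval, open diamonds the estimate without the WT array 392, and dashed lines 1.5-fold. Every interval includes 0, and the diamonds lie on the other side of 0 from the point for 21 members.

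By complex, the medians stayed close to 0. Among the 9 genes of start codon selection and eIF2 the median log2 fold change was 0.052, with 7 above 0, and all 9 intervals lay inside 1.5-fold. Eif1ad, a relative of eIF1A, had the highest value of this group (0.19, SE 0.18) and Eif2a, an alternative initiator tRNA factor, the lowest (-0.03, SE 0.19). Eif2s1, the regulated alpha subunit of eIF2, was not measured by a probe set of its own symbol alone, and neither were Eif1, Eif3g and Eif4g1. The 5 subunits of eIF2B, the exchange factor of eIF2, had a median of -0.03, and only 2 of their intervals lay inside 1.5-fold. Their values ran from Eif2b3 at -0.14 (SE 0.24) to Eif2b1 at 0.26 (SE 0.39).

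The 11 measured eIF3 subunit genes had a median of -0.054, with 8 of 11 below 0. Eif3k, a subunit outside the core, was lowest (-0.34, SE 0.20), and Eif3i, a core subunit with a closely bounded value, was highest (0.02, SE 0.08). The median of the 11 was -0.026 without the library labelled 433 and 0.004 without both that library and array 392. The 10 measured eIF4 genes had a median of 0.006. The lowest was Eif4e2 (-0.14, SE 0.34), a relative of eIF4E that binds the cap without recruiting ribosomes in the usual way. The highest was Eif4g3 (0.23, SE 0.15), a second eIF4G scaffold. Without array 392 the value of Eif4e2 was 0.17.

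For the cap-binding protein itself the brightest probe set gave a precise value. Eif4e had 12.11, 12.38 and 12.64 as the lowest, median and highest level in KO samples, against 12.14, 12.38 and 12.62 in WT samples. The genotypes covered almost the same range, and the log2 fold change was -0.03 (SE 0.10). Dimmer probe sets of Eif4e gave 0.06 (SE 0.13), 0.30 (SE 0.18) and 0.12 (SE 0.18). Of its repressors, Eif4ebp2, the main 4E-BP of the brain, had a median of 8.74 in KO samples and 8.75 in WT samples (log2 fold change 0.01, SE 0.18), again with overlapping ranges of 8.27 to 9.16 and 8.14 to 9.03. The other probe sets of Eif4ebp2, all dimmer, gave -0.05 (SE 0.23), 0.36 (SE 0.18), 0.07 (SE 0.31) and 0.31 (SE 0.17). None of them reached an unadjusted p of 0.05 in limma. Eif4enif1, which carries eIF4E into the nucleus, was at 0.07 (SE 0.11).

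In elongation, the 6 eEF1 and eEF2 genes had a median of -0.086. Eef1a1, the eEF1A form of most cells, had 13.71, 14.82 and 15.07 in KO samples, against 14.63, 14.78 and 14.99 in WT samples. The lowest KO value belonged to the library labelled 433, and the log2 fold change of -0.15 (SE 0.17) was -0.02 (SE 0.12) without it. Eef1a2, the form that takes over in mature neurons and muscle, had 9.26, 9.85 and 10.51 in KO samples, against 8.21, 9.85 and 11.70 in WT samples. Its highest value was that of array 392, and its log2 fold change of 0.05 (SE 0.36) was 0.36 (SE 0.28) without that array. Eef2 stood at -0.07 (SE 0.23) and Eef1e1, a scaffold protein of the tRNA synthetase complex, at 0.06 (SE 0.17).

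Among the 5 modifiers of elongation factors the median was 0.063. Eef2k, the kinase that slows elongation, had levels of 9.68 to 10.53 in KO samples (median 10.29) and 9.88 to 10.86 in WT samples (median 10.21), with a log2 fold change of -0.04 (SE 0.17). The methyltransferase gene Eef1akmt2 had the highest log2 fold change of all members, 0.30 (SE 0.36), which was -0.10 (SE 0.16) without array 392, and Eef1akmt1 was at -0.11 (SE 0.19). The group named subunit joining and eIF5A held 3 genes, Eif5a, Eif5a2 and Eif6, while Eif5b was counted under start codon selection and eIF2. Eif5a, the factor that relieves stalled ribosomes and carries the amino acid hypusine, was at -0.03 (SE 0.18). Its second form Eif5a2 was at 0.21 (SE 0.21), and this second value was 0.03 (SE 0.15) without array 392.

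The 5 members with the smallest p-values are given by their samples. Eif3k had 9.08, 9.51 and 10.06 as the lowest, median and highest level in KO samples, against 9.43, 9.69 and 10.86 in WT samples. Most of its KO values lay within the WT range, while 3 lay below it (p = 0.109 in limma, 0.129 in a two-sided exact permutation test over 6435 splits). Its log2 fold change of -0.34 (SE 0.20) was -0.18 (SE 0.16) without array 392, which held the highest WT value. Eif4g3 had 9.68, 10.09 and 10.61 in KO samples, against 9.46, 9.91 and 10.11 in WT samples. The 4 highest of its 15 values were KO values, and the log2 fold change was 0.23 (SE 0.15, exact permutation p = 0.13). Its highest value came from the library labelled 433, without which the log2 fold change was 0.15 (SE 0.13).

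Eif4ebp1, the gene of 4E-BP1, had 6.90, 7.53 and 8.13 in KO samples, against 6.91, 7.82 and 9.84 in WT samples. Array 392 alone lay above all other values, and the log2 fold change of -0.44 (SE 0.33, exact permutation p = 0.264) was -0.12 (SE 0.22) without it. This is an _x_at set, and its other 2 probe sets, both dimmer, gave -0.08 (SE 0.17) and -0.40 (SE 0.22). Eif3h, a regulatory subunit of eIF3, had 12.04, 12.86 and 13.28 in KO samples, against 12.69, 12.91 and 13.50 in WT samples. The library labelled 433 held its lowest value and array 392 its highest, and the log2 fold change of -0.21 (SE 0.17, exact permutation p = 0.271) was -0.02 without both. Eef1b2, the exchange factor of eEF1A, had 11.90, 12.44 and 13.17 in KO samples, against 11.99, 12.57 and 13.68 in WT samples. Its groups overlapped almost throughout (-0.26, SE 0.23, exact permutation p = 0.33), and the value was -0.10 (SE 0.21) without WT array 385, which held the highest level, and -0.38 (SE 0.23) without WT array 393. All 52 members had an adjusted p of 1.

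**Figure D2:**
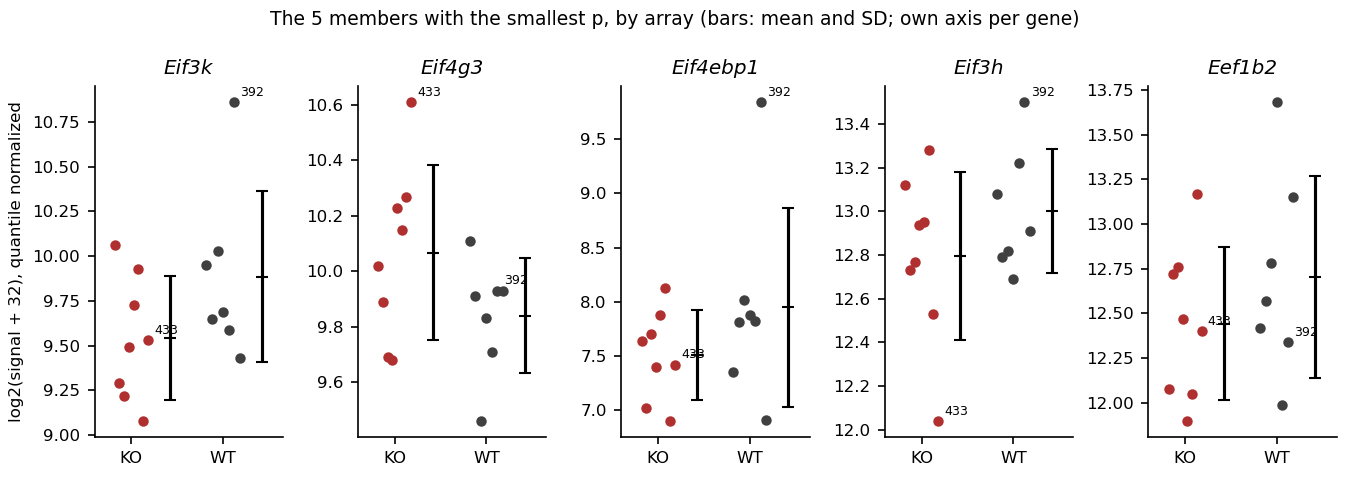
Levels of the 5 members with the smallest p-values, as quantile normalized log2(signal + 32) on the vertical axis with a separate scale for each gene. Each point is 1 array, KO on the left and WT on the right, bars give mean and SD (n = 8 and 7), and the numbers mark the library labelled 433 and array 392. KO and WT ranges overlap in every panel, and array 392 holds the highest value of Eif3k, Eif4ebp1 and Eif3h.

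The 137 probe sets of the members shared the absence of calls, though sets of a gene often differed. Of the 36 genes with several probe sets, 23 had sets on both sides of 0, and 0 of the 137 sets were called. At an unadjusted p under 0.05 stood 2 higher in KO, a set of Eif2s2, the beta subunit of eIF2 (0.61, SE 0.24), and a set of Eif2b2 (0.37, SE 0.17), and 1 lower, a set of the eIF3 subunit gene Eif3m (-0.55, SE 0.25). None of these was the brightest set of its gene, and the brightest sets of Eif2s2, Eif2b2 and Eif3m gave 0.01, 0.10 and -0.05. In limma the share at that threshold was counted over 1 probe set per gene only, with 1.53% of genes higher and 1.52% lower. The 3 sets are therefore not read as a change.

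Genes that act on the same machinery were not called either. In 5 further lists, 0 genes were called in either direction. Among 8 eIF2 kinases and phosphatase subunits 5 were above 0, and the smallest p belonged to Ppp1r15b, a subunit of the eIF2 phosphatase (0.25, SE 0.14). Among 9 termination, recycling and reinitiation factors it was Mcts1 (0.29, SE 0.27), and among 12 genes linking mTORC1 to translation Mlst8, an mTORC1 subunit (0.28, SE 0.18). Among 8 hypusine enzymes and targets of eIF2 stress signalling it was Ddit3, the stress factor CHOP (-0.35, SE 0.19). Of 13 poly(A)-binding proteins and mRNA regulators, only Cyfip2, a partner of the fragile X protein, had an unadjusted p under 0.05 in limma (0.43, SE 0.17, adjusted p = 1).

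Of the marker lists of other cell types, that of oligodendrocytes had the median farthest from 0 in KO minus WT, with 0 markers called in limma. All 7 oligodendrocyte markers were above 0 (median 0.57), 3 of them at an unadjusted p under 0.05, with mean levels of 10.08 in the library labelled 433 and 10.03 to 11.11 in the other KO samples, against 9.31 to 10.49 in WT samples, so that the groups overlapped. All 12 granule neuron markers were below 0 (median -0.325), with 0 called and 1 lower at an unadjusted p under 0.05, while their mean level was 11.32 to 11.70 in KO samples other than 433, against 11.19 to 11.64 in WT samples. In the library labelled 433 their mean level was 8.30. The 12 CA pyramidal markers had a median of 0.377, with 9 above 0 and 3 below. Their mean level was 10.99 in the library labelled 433, 8.05 to 8.79 in the other KO samples and 8.17 to 8.79 in WT samples. The part of these lists in the members' values was not tested. In captured tissue fewer cells of a type cannot be told apart from less RNA per cell.

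The WT array 392 stood apart from the other WT arrays in the members. Of the 52 members, 37 (71.2%) lay outside the range of the other 6 WT arrays, 22 above and 15 below, against 54.9% of all genes. The next highest share in the WT group was 28.8%. Eif4ebp1 was 1.82 above the highest other WT array, with 9.84 in array 392 against 6.91 to 8.02 in the others, and Eif4e2 was 1.62 above. Eef1a2 was 1.38 above, with 11.70 against 8.21 to 10.32. In the opposite direction, Eef1akmt2 was 2.48 below the lowest other WT array, with 6.12 against 8.61 to 9.26, the helicase gene Eif4a2 was 1.18 below, and Eif3a, the largest eIF3 subunit gene, 1.12 below. Leaving out array 392 changed the sign of 21 of the 52 log2 fold changes and moved their median to 0.028, with 0 members at an unadjusted p under 0.05, while the median over all genes moved to 0.018. The mean level of the members was 10.88 in array 392, against 10.69 to 10.84 in the other WT arrays and 10.84 to 10.88 in all 4 arrays of its array series, which is described next.

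The array names fall into 2 series by a number that the sources used here do not explain. Array 392 is in a series of 4 arrays (2 KO and 2 WT), and the other series holds 11. In a limma fit with genotype and series, 16 of the 52 members (30.8%) differed between the series at an adjusted p under 0.05, 12 higher in the 4-array series and 4 lower, while 6.35% of all genes were higher and 4.29% lower. Without array 392, 6 members (11.5%) were called, 4 higher and 2 lower, against 3.37% of all genes, and all 6 were also among the 16. This comparison was not part of the study's design, and each series held both genotypes.

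Subunits of eIF3 were at the head of that comparison. Eif3a had 9.58 and 9.78 in the KO and 8.99 and 10.11 in the WT arrays of the 4-array series, against 11.21 to 12.37 in the 11-array series. The 2 series did not overlap, and the log2 difference, 4-array minus 11-array series, was -2.14 (SE 0.21, adjusted p = 7.32e-05). Eif3d, which can bind the cap of selected mRNAs, had 10.33 to 11.04 in the 4-array series and 9.11 to 10.17 in the 11-array series (1.13, SE 0.19, adjusted p = 0.00207). Eif3l had 10.89 to 11.32 in the 4-array series and 9.95 to 10.40 in the 11-array series (0.85, SE 0.12, adjusted p = 0.000609). Eif3c, a core subunit, stood 0.60 higher in the 4-array series (SE 0.12), Eif1b, a relative of eIF1, 0.44 higher (SE 0.12), and Eif4g2, an eIF4G relative without the eIF4E site, 0.55 lower (log2 difference -0.55, SE 0.10). For Eif1b, array 392 (11.70) lay within the range of the 11-array series, 11.19 to 11.79. Without array 392 these 6 differences were -1.90 for Eif3a, 1.01 for Eif3d, 0.77 for Eif3l, 0.53 for Eif3c, 0.52 for Eif1b and -0.45 for Eif4g2.

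Other probe sets of the same genes did not all follow. The second set of Eif3a, with a mean signal of 1520 beside 2800 for the brightest, differed by -0.25 (SE 0.14, adjusted p = 0.277). Of the 4 sets of Eif3c, 3 were higher in the 4-array series by 0.60, 0.66 and 0.90, and the dimmest was lower (-2.15, SE 0.30, adjusted p = 0.000747). For Eif3l the other 2 sets gave -0.39 and 0.00, neither called. The other set of Eif3d, near the floor with a mean signal of 31.9, gave 0.55 (SE 0.25, adjusted p = 0.178). Of the other 4 sets of Eif4g2, 1 was also called lower (-0.54, SE 0.16, adjusted p = 0.0431), and 3 gave -0.01, -0.11 and 0.02. The log2 ratio of the 3′ to the 5′ Gapdh control probe set, a sign of RNA quality, was 5.11 to 5.37 in the 4-array series and 5.04 to 6.41 in the 11-array series, and its part in these differences was not tested.

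**Figure D3:**
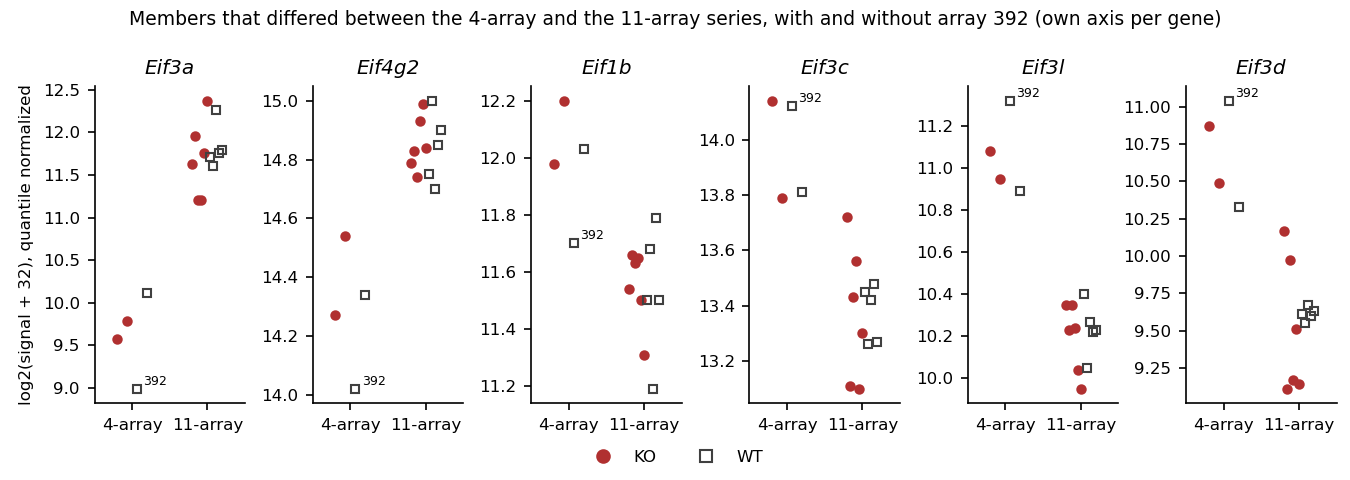
Levels of the 6 members called between the 4-array and the 11-array series both with and without array 392, as quantile normalized log2(signal + 32) with a separate scale for each gene. Filled circles are KO arrays and open squares WT arrays. Eif3a and Eif4g2 are lower in the 4-array series, the other 4 genes higher, and KO and WT arrays of a series lie together.

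With series as a further term, genotype still left 0 members at an unadjusted p under 0.05, and the same held within the 11-array series and within the 4-array series. The median log2 fold change of the members, KO minus WT, was -0.003 with that term, -0.011 within the 11-array series and 0.011 within the 4-array series. Within the 4-array series, where 2 KO arrays met 2 WT arrays that include 392, Eef1a2 stood at -0.97 and Eef1akmt2 at 1.22, against 0.46 and -0.06 within the 11-array series.

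Granule neurons and pyramidal neurons of the CA fields are the 2 large excitatory populations of the hippocampus. The paired libraries of animals 433 and 437 allowed the members to be set between them, with markers deciding which library was which. In animal 433 the unmarked library carried the CA markers (mean 10.99, granule markers 8.30) and the library marked CA13 the granule markers (mean 11.62, CA markers 8.27). In animal 437 the library marked CA13 carried the CA markers (mean 11, granule markers 8.09) and the unmarked library the granule markers (mean 11.60, CA markers 8.45). The 17 arrays were normalized together for this comparison. It has 1 library of each kind per animal, so no test was made, and animal and genotype cannot be told apart.

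In both animals, 1 member was at least 1.5-fold higher in the CA-marker library and 2 were at least 1.5-fold lower, while 6.92% of all genes were higher and 5.83% lower by that rule. Over the 52 members, 16 differences (30.8%) were positive in both animals, 24 (46.2%) negative in both and 12 (23.1%) of opposite sign, against 33.7%, 30.3% and 36.0% of all genes. For the members the median log2 difference, CA-marker minus granule-marker, was -0.04 in animal 433 and -0.07 in animal 437, against 0.01 and 0.02 over all genes.

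Eif5a2, the second eIF5A gene, was the member with the greatest excess in CA-marker libraries. It had 10.73 in the CA-marker library of animal 433 and 9.44 in its granule-marker library, a log2 difference of 1.29. In animal 437 it had 11.11 in the CA-marker library and 10.44 in the granule-marker library, a difference of 0.67. The CA-marker values were above the range of 9.13 to 10.71 in the 14 other unmarked libraries (median 10.43), that of animal 433 only barely. The granule-marker value of animal 433, 9.44, was below that median. Over the mean of both probe sets of Eif5a2 the differences were 1.01 and 0.32. The next 4 in this direction, below 1.5-fold in at least 1 animal, were Eif4g3, Eif1a, Eif2a and Eif3b. Eif4g3 had 10.61 in the CA-marker and 10.15 in the granule-marker library of animal 433, and 10.20 and 9.46 in those of animal 437. Eif1a, which encodes a form of eIF1A, had 10.40 and 9.94 in CA-marker and granule-marker libraries of animal 433, and 10.38 and 10.04 in animal 437. Both genes were thus on the same side in both animals. Eif2a had 10.32 and 10.02 in animal 433, and 10.53 and 10.21 in animal 437, again with the CA-marker library given before the granule-marker library. Eif3b, the scaffold subunit of eIF3, had 10.43 and 10.21 in animal 433, and 10.35 and 9.80 in animal 437.

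Eef1a1 and Eif4ebp1 were lower in CA-marker libraries. Eef1a1 had 13.72 in the CA-marker library of animal 433 and 14.42 in its granule-marker library, and 14.03 and 14.65 in those of animal 437. Both CA-marker values lay below the range of 14.30 to 15.09 in the 14 other unmarked libraries, and the differences were -0.70 and -0.62. Eif4ebp1 had 7.44 in the CA-marker and 8.28 in the granule-marker library of animal 433, and 7.40 and 8.03 in those of animal 437, differences of -0.85 and -0.63. Both of its CA-marker values were within the range of the other libraries, 6.92 to 9.83, and over the mean of its 3 probe sets the differences were -0.30 and -0.58. Without quantile normalization the second difference was -0.57 for Eif4ebp1 and -0.52 for Eef1a1, short of 1.5-fold in both cases.

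The next members in this direction were Eif3k, Eif3h and Eif4b. Eif3k had 9.53 in the CA-marker library and 10.05 in the granule-marker library of animal 433, and 9.03 and 10.03 in those of animal 437. Eif3h had 12.04 and 12.48 in CA-marker and granule-marker libraries of animal 433, and 12.22 and 12.82 in animal 437. Its CA-marker values lay below all 14 other unmarked libraries (12.53 to 13.51), but so did the granule-marker value of animal 433 (12.48). The CA-marker values of Eif4b, which encodes a helper of eIF4A, also lay below those 14 libraries, with 11.11 and 11.38 against 11.49 to 12.12. Eif4b had 11.56 in the granule-marker library of animal 433 and 11.80 in that of animal 437. The neuronal form Eef1a2 was at -0.76 and -0.19, within its range in the other libraries. Eif4e, with differences of 0.08 and -0.01, was nearly level between the libraries of each animal.

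**Figure D4:**
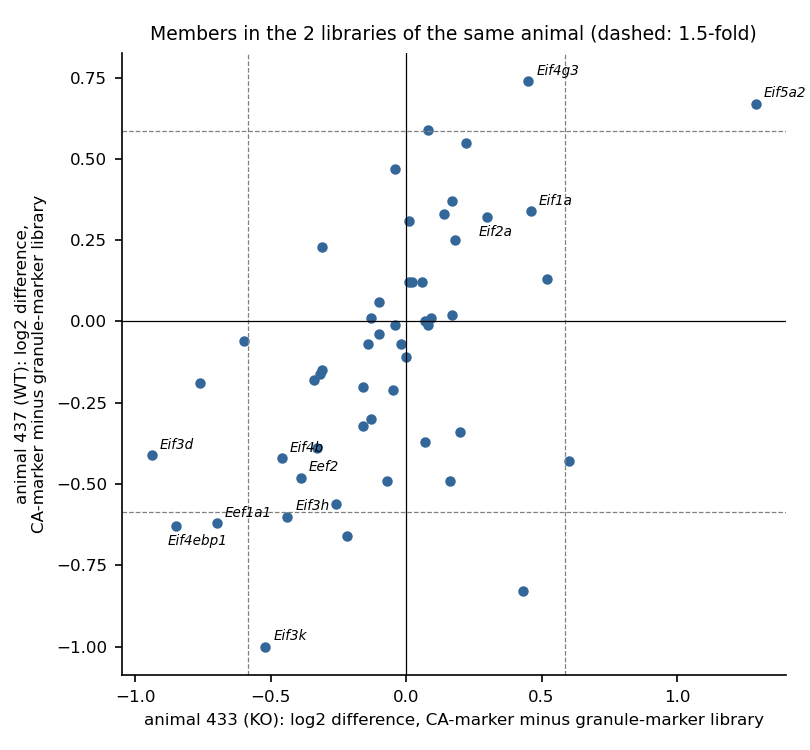
Log2 difference of each of the 52 members between the CA-marker and the granule-marker library of animal 433 (KO, horizontal axis) and of animal 437 (WT, vertical axis). Dashed lines mark 1.5-fold, and the members farthest from 0 in both animals are named. Eif5a2 alone lies past 1.5-fold at the upper right, and Eif4ebp1 and Eef1a1 alone at the lower left.

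The same genes bear on the KO and WT comparison through the library labelled 433. It lay below all other KO libraries for Eef1a1 (13.71 against 14.29 to 15.07), Eif4b (11.11 against 11.63 to 12.13), Eif3h (12.04 against 12.53 to 13.28) and Eif3f (13.39 against 13.77 to 14.20), and above them for Eif4g3 (10.61 against 9.68 to 10.27). In all, 17 of its 52 members (32.7%) lay outside the range of the other KO libraries, against 39.1% of all genes. The share was higher in the KO arrays 390 (42.3%, against 33.9% of all genes), MS15 (38.5%, against 27.3%) and 391 (34.6%, against 19%). Replacing it by the CA13-marked library of the same animal, which carried the granule markers, gave log2 fold changes, KO minus WT, of -0.07 for Eef1a1, -0.15 for Eif3h and 0.17 for Eif4g3, with a median of 0.004 over the members.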

How the data were processed

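The authors deposited a table of signal intensity for 45101 probe sets in 17 samples, linear and scaled to a common trimmed mean. The submitters' processing notes name MAS5 and the methods RMA with SAM. The values are linear, so the path set for linear values was taken in place of the one for log values. The sources used here give no genome build for the probe sets. Probe sets were named through the platform annotation, and all 52 members were found by Entrez ID in RefSeq (GRCm38.p6), with 0 symbols changed. The 64 control probe sets and 8 probe sets with several symbols that include a member were left out.

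After adding 32, log2 values of the 15 unmarked arrays were quantile normalized and fitted with limma 3.58.1 in R 4.3.3, with genotype as the term and eBayes with an intensity trend. P-values were adjusted by Benjamini-Hochberg over 45037 probe sets, and the fit was tested on simulated data. Shares of genes called are over 1 probe set per gene. Single values were tested by exact permutation. SAM called 6 probe sets higher and 3 lower in KO, and the methods' t-test 748 and 761 at p under 0.05 and 0 and 4 after Benjamini-Hochberg, with 0 members in any. Members, complexes and lists were chosen with earlier results of these data known. Named are the 5 members of smallest p, the extremes of each complex, members of known role, the 5 largest library differences each way, and the smallest p of each further list. The comparison of array series, with and without 392, and the use of plain _at probe sets were added after seeing the data.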

Additional observations from a re-analysis of the deposited data

Results flagged for a closer look

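Among 23 named members, each looked at in KO and in WT samples (46 groups), 5 values stood far from the rest of their group, and 4 of them belonged to the WT array 392. In groups picked without regard to their values, chance alone flags about 1 in 20. Some of these members were named for their p-value or fold change, which array 392 moved. The 5 flags therefore cannot be set against that rate. In array 392, Eef1akmt2 was at 6.12 with the nearest other WT value at 8.61, Eef1e1 at 8.50 with the nearest at 9.25, Eif3k at 10.86 with the nearest at 10.03, and Eif4ebp1 at 9.84 with the nearest at 8.02. In KO array 390, Eef1e1 was at 8.95 with the nearest other KO value at 9.40. Eif3k and Eif4ebp1 are among the 5 members of smallest p, and without array 392 their log2 fold changes, KO minus WT, were -0.18 and -0.12.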

How the results depend on the processing

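No member was called under any setting tried, and at an unadjusted p under 0.05 the only member in any setting was Eif2b2, higher in KO when all probe sets of a gene were averaged (0.24, SE 0.11, adjusted p = 1). The median of the members stayed between -0.034 (without KO array 391) and 0.045 (plain _at probe sets). Between CA-marker and granule-marker libraries, the count of 2 lower members became 1 with a higher offset, where Eef1a1 remained, and 0 without quantile normalization. At 2-fold 0 were higher and 0 lower, and averaging probe sets gave 1 higher (Eif1a, 1.03 and 0.81) and 2 lower (Eef1a1, and Eif3h at -0.73 and -1.06). Between the array series, 4 higher and 2 lower members were called without array 392. The number of arrays limits the precision.

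The following log2 fold changes changed sign, none of them called. Without array 392 they were 0.01 for Eef1akmt1, -0.10 for Eef1akmt2, -0.09 for Eef1e1, 0.07 for Eef2, 0.05 for Eef2k, 0.17 for Eif4e2 and 0.02 for Eif5a. Without 392 and 433 they were 0.00 for Eef1akmt1, -0.06 for Eef1akmt2, -0.10 for Eef1e1, 0.06 for Eef2, 0.05 for Eef2k, 0.17 for Eif4e2 and -0.01 for Eif5a2, and without 433 alone -0.01 for Eef1a2. With the CA13-marked library in place of 433, Eef1e1 was at -0.01 and Eif4ebp2 at 0.00. Within the 4-array series they were 0.20 for Eef1a1, -0.97 for Eef1a2, 0.16 for Eif2a, 0.05 for Eif2b3, -0.18 for Eif3i, -0.10 for Eif4ebp2, -0.04 for Eif4enif1 and 0.19 for Eif5a. Within the 11-array series they were -0.06 for Eef1akmt2, -0.08 for Eef1e1, 0.05 for Eef2k and 0.09 for Eif4e2. Array weights gave -0.02 for Eef1e1, 0.05 for Eef2, 0.01 for Eef2k, 0.07 for Eif4e2 and 0.01 for Eif5a. Averaged probe sets gave 0.02 for Eef1akmt1, 0.03 for Eef2k, 0.08 for Eif2a, -0.04 for Eif3i, 0.11 for Eif4e and 0.06 for Eif4e2, and plain _at probe sets 0.06 for Eef2k, 0.15 for Eif2a, -0.09 for Eif3i and 0.08 for Eif4e2. Without quantile normalization Eif3i was at -0.05. Leaving out 1 sample at a time, the range was -0.22 to 0.36 for Eef1a2, -0.19 to 0.01 for Eef1akmt1, -0.10 to 0.42 for Eef1akmt2, -0.09 to 0.13 for Eef1e1, -0.17 to 0.07 for Eef2, -0.11 to 0.05 for Eef2k, -0.13 to 0.07 for Eif2a, -0.01 to 0.06 for Eif3i, -0.07 to 0.01 for Eif4e, -0.31 to 0.17 for Eif4e2, -0.08 to 0.07 for Eif4ebp2 and -0.11 to 0.08 for Eif5a. The cause of these changes was not tested. No paired analysis was possible because KO and WT labels share no replicate numbers. The other 342 values of named members outside this leave-one-out, and 310 within it, kept their sign.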
